A study of Homo sapiens with 12 samples.

Results

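Wnt ligands, their receptors and their secreted antagonists were followed in neural cultures made from human pluripotent stem cell lines. The members are all protein-coding genes named WNT, FZD, SFRP or DKK with a number, plus FRZB, WIF1, LRP5, LRP6, RSPO1, RSPO2 and RSPO3. This gave 44 of the 63925 gene IDs in the count files: 19 Wnt ligands, 10 Frizzled receptors, 2 LRP co-receptors, 3 of the R-spondins, 5 secreted Frizzled-related proteins with FRZB counted among them, 4 Dickkopf proteins and WIF1.

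The series measured polyadenylated RNA in 12 cultures of the established lines H9 and H1, to ask how neural cells respond to a glucocorticoid. All cultures were made by dual SMAD inhibition over 10 weeks and kept in medium with B-27, BDNF, GDNF, ascorbic acid and cyclic AMP. The 4 groups were H9 with dexamethasone, H9 with vehicle, H1 with dexamethasone and H1 with vehicle, with 3 sister cultures each. Dexamethasone, a man-made glucocorticoid hormone analogue, was given at 1 µM for 6 h, and the vehicle DMSO for the same time. Each line is a single genetic background, and sister cultures, here the cultures of a group, do not repeat it. The labels do not say whether sister cultures came from separate differentiations. The p-values here therefore measure only the spread between sister cultures.

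Wnt ligands are secreted lipid-modified proteins that bind Frizzled receptors, with LRP5 or LRP6 as co-receptor when the signal runs through beta-catenin. Secreted Frizzled-related proteins and WIF1 bind the ligands, Dickkopf proteins bind the LRP co-receptors, and R-spondins keep Frizzled receptors at the cell surface by drawing off the ligases RNF43 and ZNRF3. In the developing brain these signals come from dorsal and caudal organizers such as the cortical hem, and they pattern the neural tube and drive progenitor division.

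Library totals ran from 14751168 to 27505804 counts. H9 vehicle culture 3 had the lowest total, 0.607% mitochondrial counts against at least 4.80% in the rest of its line and at least 2.91% in H1, and a root mean square log2 distance of 0.853 to its group, against 0.268 to 0.309 in the other 3 groups. In it 20 of the 33 tested members lay more than 0.5 log2 from the mean of its sister cultures, 7 above and 13 below, and 54.2% of all genes tested did so. Calls of members between the lines or under dexamethasone that this library changes are therefore also given without it. Genes of the pathway and marker lists are given only with all libraries. DCX, a microtubule protein of young neurons, had mean levels of 1493, 1207, 657 and 631 CPM (counts scaled by library size and TMM factor) in H9 dexamethasone, H9 vehicle, H1 dexamethasone and H1 vehicle cultures. The neural genes TUBB3 and SOX2 were at or near 0 in every library, so a count near 0 is not read here as absence. In bulk RNA, fewer cells of a type and less RNA per cell cannot be told apart.

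Of the 44 members, 33 had enough counts to be tested. The other 11 held few or no reads over all 12 libraries: WNT8A 69 counts, WNT3A 41, WNT2 39, DKK4 22, WNT6 21, WNT10A 19, WNT3 5, WNT1 4, WNT16 4, LRP6 2 and WNT9B 0. LRP6, WNT3 and WNT9B lie in stretches where neighbouring genes were also at or near 0 in every library, so their counts cannot be read as levels. Beside LRP6 these were MANSC1 with 0 counts, BORCS5 with 4 and DUSP16 with 4, while ETV6 and CREBL2 further out held 6515 and 9750. Beside WNT3 and WNT9B they were NSF and GOSR2 with 0 counts each, while RPRML held 234 and CDC27 24654. Further out, KANSL1 held 61 and MAPT 143. Some ligand genes lie next to each other. WNT10B held 1589 counts over all libraries and WNT1, 6.7 kb away on chromosome 12, held 4. Their near neighbours FKBP11 and ARF3 held 0 and 80 counts, so the count of WNT1 is not read as a level either. WNT9A held 3734 counts and WNT3A, 59.2 kb away on chromosome 1, held 41. WNT6 and WNT10A, 6.1 kb apart on chromosome 2, held 21 and 19.

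To compare genes with each other, counts were divided by exon length and scaled to the same total in every library (TPM). The summed TPM of the 19 ligand genes was 367 ± 34 in H9 dexamethasone, 392 ± 57 in H9 vehicle, 369 ± 41 in H1 dexamethasone and 373 ± 1.4 in H1 vehicle cultures (SD, n = 3 each). The ranges of all 4 groups overlapped. What differed was the make-up. WNT8B, a ligand of the hippocampal and hem region of the forebrain, gave 50.9 ± 5.8% and 48.1 ± 8.4% of ligand TPM in H9 dexamethasone and vehicle cultures, and 51.1 ± 7.6% and 55.2 ± 2.4% in the H1 groups. WNT7B, a ligand of the forebrain, gave 12.8 ± 1.2% and 14.6 ± 3.1% in H9 and 26.0 ± 3.9% and 23.6 ± 1.9% in H1. Its close relative WNT7A, which acts with WNT7B on brain vessels, gave 9.08 ± 1.8% and 6.99 ± 1.4% in H9 and 3.38 ± 0.46% and 2.59 ± 0.25% in H1. The share of WNT7B was lower, and that of WNT7A higher, in every H9 library than in any H1 library. Summed TPM and shares, here and below, are given only with all libraries. In H9 vehicle culture 3 the TPM and CPM scales disagreed. DKK3 there was the highest of the H9 libraries in TPM, at 397, and the lowest in CPM, at 401.

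**Figure D1:**
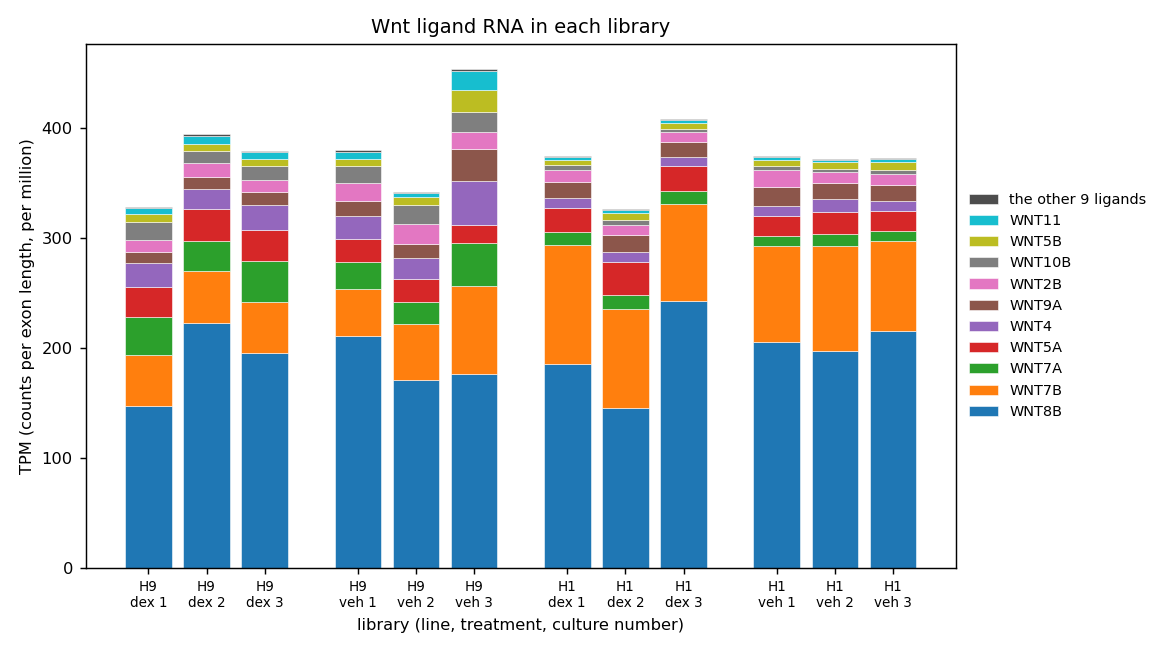
Stacked bars show the TPM of each Wnt ligand gene in each of the 12 libraries, with H9 left of H1 and dexamethasone left of vehicle within a line. The bars reach 326 to 453 TPM, WNT8B fills 38.9% to 59.4% of each, and the WNT7B segment is a larger and the WNT7A segment a smaller part of the 6 H1 bars.

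In order of mean TPM over the 6 libraries of a line, H9 had WNT8B, WNT7B, WNT7A, WNT4, WNT5A, WNT10B, WNT9A, WNT2B, WNT5B and WNT11. H1 had WNT8B, WNT7B, WNT5A, WNT9A, WNT7A, WNT2B, WNT4, WNT5B, WNT10B and WNT11. In H9, WNT8B stood clear of WNT7B and WNT7B clear of WNT7A, and from WNT7A down the ranges of each gene and the next overlapped. In H1 the first 4 steps were clear, and WNT7A, WNT2B and WNT4 overlapped from step to step. WNT10B stood sixth in H9 at 15.2 ± 3.0 TPM and ninth in H1 at 3.54 ± 0.74 TPM (SD, n = 6).

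H9 and H1 cultures differed in many members. In vehicle cultures 11 members were higher and 9 lower in H9, 20 of the 33 tested (edgeR quasi-likelihood test, Benjamini-Hochberg adjusted p under 0.05 over all genes). The background was high: 46.9% of all 17819 genes tested passed, 25.7% higher and 21.2% lower, and the share of the members, 60.6%, has to be read against it. In dexamethasone cultures, which share no library with the first comparison, 12 members were higher and 7 lower, 57.6% of those tested, beside 43.6% of all genes (22.5% higher, 21.2% lower). Both comparisons called 17 members in the same direction, 10 higher and 7 lower, beside 33% of all genes (18.3% higher, 14.7% lower). Without H9 vehicle culture 3 the counts were 23 and 25 members, beside 58.6% and 64.6% of all genes. All 12 libraries were fitted in 1 model with a shared estimate of the spread, so that library also bears on the dexamethasone comparison. The calls of the comparisons are therefore not fully separate. The median log2 fold change of the tested members was 0.52 in vehicle and 0.38 in dexamethasone cultures, beside 0.03 and -0.02 for all genes. The families differed in direction: RSPO1, RSPO2 and RSPO3 were higher in H9 in both comparisons, while of 10 Frizzled genes none was higher and 6 in vehicle and 5 in dexamethasone cultures were lower. The other families with more than 1 tested member were mixed in vehicle cultures. The labels give no differentiation run or flow cell for a library, so these cannot be told apart from the line.

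**Figure D2:**
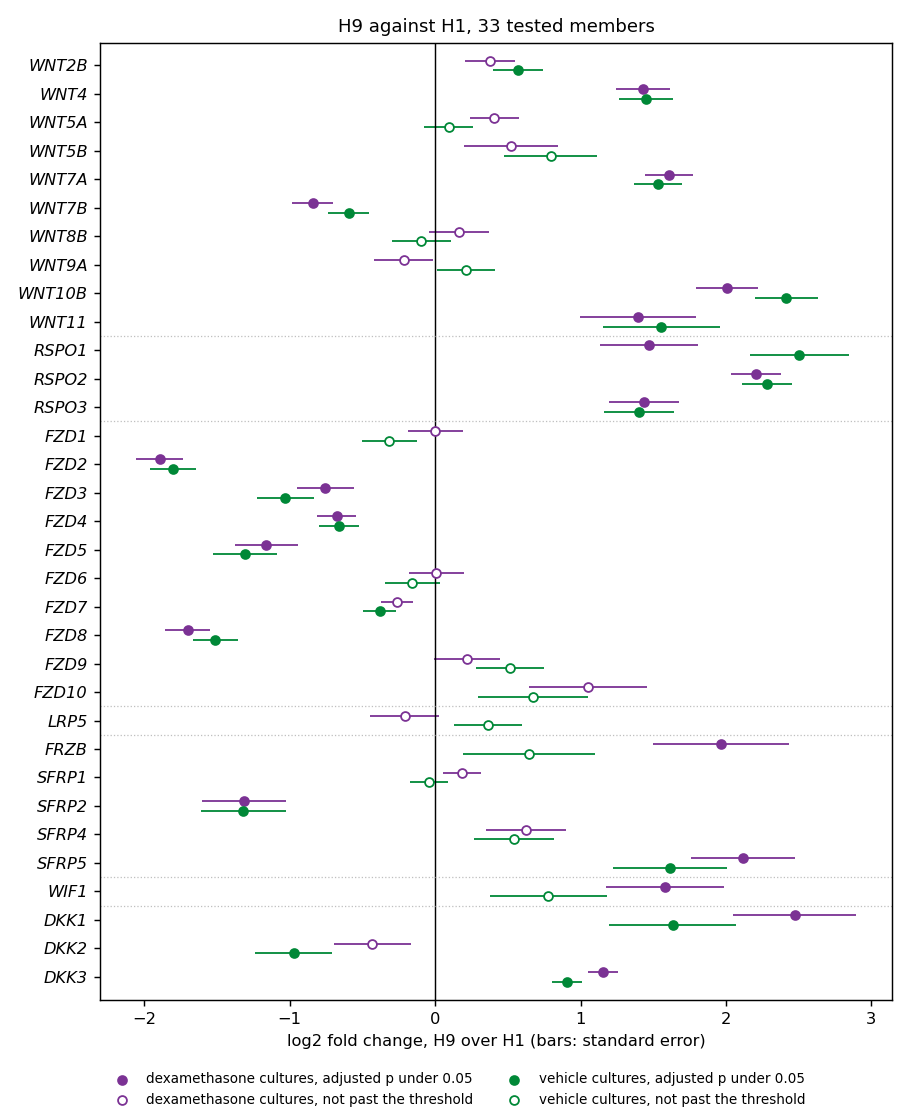
Points show the log2 fold change of H9 over H1 for each of the 33 tested members in dexamethasone cultures (purple) and vehicle cultures (green), with bars of 1 standard error, filled where the adjusted p was under 0.05. RSPO1, RSPO2 and RSPO3 lie right of 0 and the filled Frizzled points lie left of it, from -0.38 for FZD7 in vehicle cultures to -1.89 for FZD2 in dexamethasone cultures.

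Among the ligands, WNT4, WNT7A, WNT10B and WNT11 were higher and WNT7B was lower in H9 in both comparisons. WNT10B, a ligand that signals through beta-catenin, was at 10.96, 7.39 and 8.41 CPM in H9 dexamethasone and 9.61, 11.8 and 9.59 CPM in H9 vehicle cultures, against 2.24, 2.64 and 1.76 CPM in H1 dexamethasone and 2.33, 1.53 and 1.96 CPM in H1 vehicle cultures. Every H9 library was above every H1 library. The log2 fold change of H9 over H1 was 2.41 ± 0.22 in vehicle cultures (SE, adjusted p = 4.7e-06) and 2.01 ± 0.21 in dexamethasone cultures (adjusted p = 1.5e-05). WNT7A was at 39.3, 32.5 and 44.6 CPM in H9 dexamethasone and 26.9, 23.4 and 35.8 CPM in H9 vehicle cultures, against 12.7, 12.8 and 12.7 CPM in H1 dexamethasone and 9.20, 11.04 and 9.41 CPM in H1 vehicle cultures. The lines did not overlap, with log2 fold changes of 1.53 ± 0.17 in vehicle cultures and 1.61 ± 0.16 in dexamethasone cultures (adjusted p = 2.0e-05 and 1.1e-05). WNT4, a ligand needed to form the kidney in mice, had log2 fold changes of 1.45 ± 0.19 and 1.43 ± 0.19.

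WNT11, a ligand mostly tied to signalling without beta-catenin, had log2 fold changes of 1.55 ± 0.40 in vehicle and 1.39 ± 0.40 in dexamethasone cultures. Its vehicle value leaned on H9 vehicle culture 3, at 8.16 CPM against 3.61 and 2.13 CPM in its sister cultures, and was 0.91 ± 0.25 without it (adjusted p = 0.0061). WNT11 shares 8.5% of its exon bases with the antisense gene AP000785.1. WNT7B was lower in H9, by -0.59 ± 0.14 in vehicle and -0.84 ± 0.14 in dexamethasone cultures on the log2 scale. WNT2B, a ligand of the cortical hem in mice, passed in vehicle cultures alone (0.57 ± 0.17, adjusted p = 0.017), and 21.2% of its exon bases are shared with ST7L on the other strand, whose reads cannot be told apart without a stated strand setting. Without H9 vehicle culture 3 it passed in dexamethasone cultures too, at 0.38 ± 0.13 (adjusted p = 0.015). Leaving out H9 vehicle culture 2, H1 vehicle culture 2 or H1 vehicle culture 3 lost its call (log2 fold changes of 0.42, 0.48 and 0.47, adjusted p of 0.071, 0.075 and 0.077).

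WNT8B, the most abundant ligand by TPM in both lines, was at 78.5, 120 and 108 CPM in H9 dexamethasone and 107, 91.0 and 74.3 CPM in H9 vehicle cultures, against 86.3, 68.0 and 118 CPM in H1 dexamethasone and 95.2, 93.7 and 102 CPM in H1 vehicle cultures. The groups overlapped throughout, and the log2 fold changes of -0.09 ± 0.21 and 0.17 ± 0.21 did not pass. WNT5A, WNT5B and WNT9A did not pass in either comparison. WNT5B passed in dexamethasone cultures without H9 vehicle culture 3, at 0.52 ± 0.15 log2 (adjusted p = 0.0061). WNT5A, a ligand of the pathway without beta-catenin, had log2 fold changes of 0.10 ± 0.17 in vehicle and 0.41 ± 0.17 in dexamethasone cultures (adjusted p = 0.66 and 0.067). Without H9 vehicle culture 3 these were 0.27 and 0.41 and both passed (adjusted p = 0.046 and 0.0018).

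The R-spondins, which raise the sensitivity of a cell to Wnt, were represented by RSPO1, RSPO2 and RSPO3, each higher in H9 in both comparisons. RSPO4, which is not among the members, did not pass in either (0.60 ± 0.25 log2 in vehicle cultures, adjusted p = 0.070, and -0.15 ± 0.25 in dexamethasone cultures, adjusted p = 0.67). RSPO2 was at 47.1, 57.5 and 57.3 CPM in H9 dexamethasone and 54.6, 61.0 and 44.9 CPM in H9 vehicle cultures, against 13.9, 10.6 and 10.6 CPM in H1 dexamethasone and 13.2, 10.6 and 9.25 CPM in H1 vehicle cultures. The lowest H9 library was well above the highest H1 library. The log2 fold change was 2.28 ± 0.17 in vehicle and 2.21 ± 0.17 in dexamethasone cultures (adjusted p = 1.3e-06 and 1.5e-06). RSPO3 was at 20.9, 31.0 and 31.3 CPM in H9 dexamethasone and 34.0, 36.2 and 20.6 CPM in H9 vehicle cultures, against 12.6, 10.3 and 7.81 CPM in H1 dexamethasone and 12.6, 11.8 and 10.1 CPM in H1 vehicle cultures. H9 was higher without overlap, at 1.40 ± 0.24 and 1.44 ± 0.24 log2 (adjusted p = 5.3e-04 and 4.5e-04). RSPO1 had log2 fold changes of 2.504 ± 0.34 in vehicle and 1.47 ± 0.33 in dexamethasone cultures (adjusted p = 1.1e-04 and 0.0038). In TPM, RSPO2 led in H9 at 53.6 ± 4.4 over RSPO3 at 37.3 ± 7.2, without overlap, whereas in H1 RSPO3 at 15.3 ± 2.8 and RSPO2 at 12.3 ± 2.1 overlapped (SD, n = 6). Summed over RSPO1, RSPO2 and RSPO3, TPM was 92.03 ± 13 and 110 ± 9.1 in H9 dexamethasone and vehicle cultures, and 30.0 ± 6.3 and 30.7 ± 5.4 in the H1 groups.

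**Figure D3:**
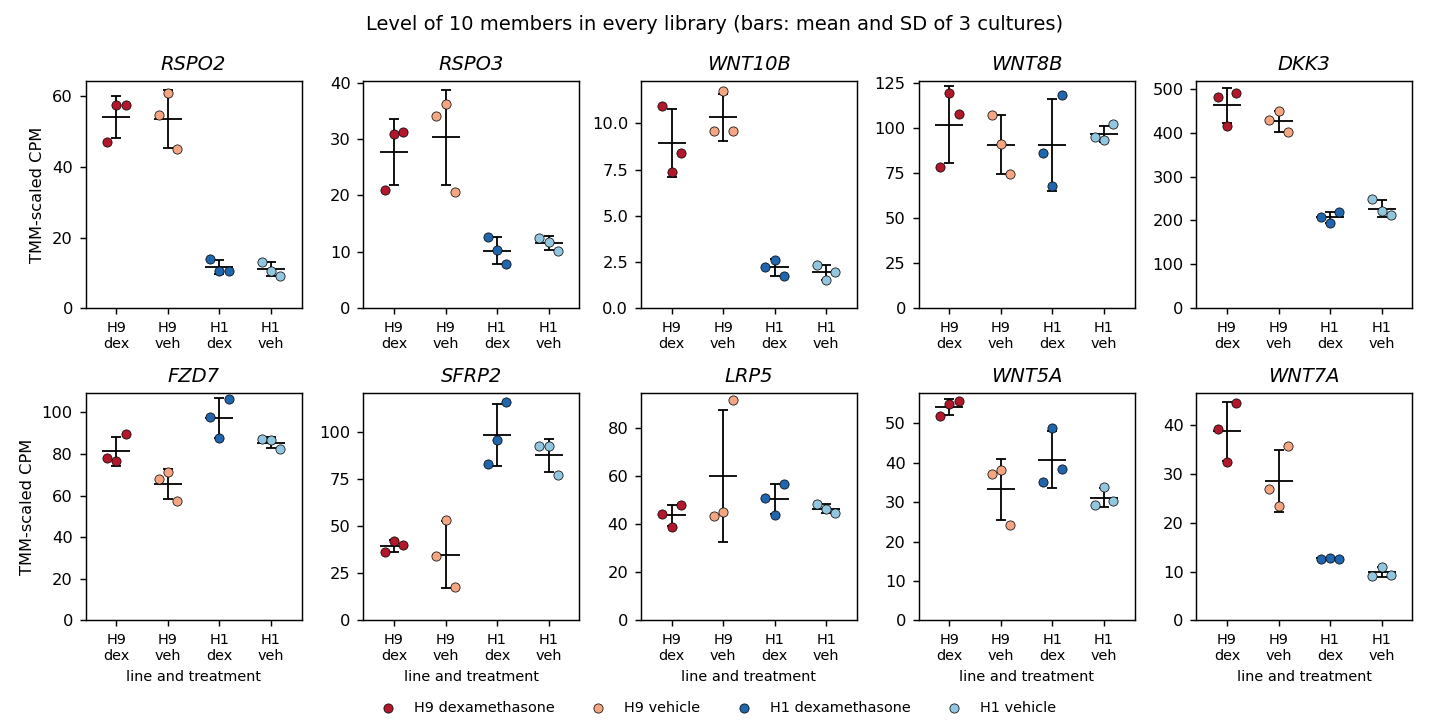
Each panel shows 1 of 10 members with its CPM in all 12 libraries as points, and the mean and SD of the 3 cultures of a group as bars, in the order H9 dexamethasone, H9 vehicle, H1 dexamethasone and H1 vehicle. RSPO2, RSPO3, WNT10B, DKK3 and WNT7A are higher in all H9 libraries, SFRP2 is lower, WNT8B overlaps, and LRP5 has 1 high point at 91.4 CPM in H9 vehicle culture 3.

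Frizzled receptors ran the other way. FZD2, FZD3, FZD4, FZD5 and FZD8 were lower in H9 in both comparisons and no Frizzled gene was higher. FZD2 and FZD8 had the largest differences, -1.80 ± 0.16 and -1.51 ± 0.15 in vehicle and -1.89 ± 0.16 and -1.70 ± 0.15 in dexamethasone cultures on the log2 scale (lowest adjusted p = 2.5e-06). FZD2 lay between 4.59 and 6.00 CPM in the 6 H9 libraries and between 17.0 and 22.2 CPM in the 6 H1 libraries. FZD5, which like FZD8 belongs to the anterior neural plate and eye field in vertebrate embryos, had log2 fold changes of -1.31 ± 0.22 and -1.16 ± 0.22. FZD3, a receptor of axon tracts and planar polarity, had -1.03 ± 0.20 and -0.75 ± 0.20. FZD4, the Norrin receptor of retinal vessels, had -0.66 ± 0.14 and -0.68 ± 0.14, and 18.9% of its exon bases are shared with PRSS23 on the other strand, whose reads cannot be told apart.

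FZD7, the Frizzled gene with the highest TPM in both lines, was at 78.0, 76.3 and 89.4 CPM in H9 dexamethasone and 67.8, 71.3 and 57.5 CPM in H9 vehicle cultures, against 97.6, 87.6 and 107 CPM in H1 dexamethasone and 87.3, 86.9 and 82.2 CPM in H1 vehicle cultures. In vehicle cultures every H9 library was below every H1 library, and the log2 fold change was -0.38 ± 0.11 (adjusted p = 0.014). In dexamethasone cultures the lines overlapped and the change of -0.26 ± 0.11 did not pass (adjusted p = 0.076), although it did without H9 vehicle culture 3, at the same size (adjusted p = 0.0069). FZD1, FZD6, FZD9 and FZD10 did not pass in either comparison, although FZD10, at under 1 CPM in every library, did in dexamethasone cultures without H9 vehicle culture 3 (1.06 ± 0.39, adjusted p = 0.027). The summed TPM of the 10 genes was 202 ± 4.4 and 195 ± 10 in H9 dexamethasone and vehicle cultures, against 348 ± 11 and 344 ± 18 in the H1 groups. FZD7 gave 40.6 ± 2.4% and 37.8 ± 2.6% of it in H9 and 32.2 ± 1.6% and 28.9 ± 1.8% in H1.

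LRP5, the only co-receptor with a usable count, was at 44.0, 38.9 and 47.7 CPM in H9 dexamethasone and 43.3, 45.1 and 91.4 CPM in H9 vehicle cultures, against 50.8, 43.9 and 56.5 CPM in H1 dexamethasone and 48.5, 46.2 and 44.5 CPM in H1 vehicle cultures. Apart from H9 vehicle culture 3 all libraries lay between 38.9 and 56.5 CPM. Its line difference did not pass in either comparison.

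Among the antagonists, 5 genes that code for Frizzled-related proteins were split. SFRP2, which had the highest TPM of them in both lines, was at 36.1, 42.4 and 39.9 CPM in H9 dexamethasone and 34.2, 53.3 and 17.5 CPM in H9 vehicle cultures, against 83.1, 96.0 and 116 CPM in H1 dexamethasone and 92.7, 92.9 and 77.4 CPM in H1 vehicle cultures. All H9 libraries were lower, by -1.32 ± 0.29 log2 in both comparisons (adjusted p = 0.0029 and 0.0030), and by -1.005 ± 0.16 in vehicle cultures without H9 vehicle culture 3. SFRP5 was higher in H9 at 1.62 ± 0.39 and 2.11 ± 0.36 log2, at levels of 0.68 to 1.97 CPM in H9 and 0.19 to 0.63 CPM in H1. FRZB, first known from cartilage, passed in dexamethasone cultures alone (1.97 ± 0.47, adjusted p = 0.0049). In vehicle cultures it was at 27.3, 32.96 and 19.9 CPM in H9, against 12.9, 6.23 and 32.2 CPM in H1, and 1 H1 library fell within the H9 values. SFRP1 and SFRP4 did not pass, but SFRP4 did without H9 vehicle culture 3, at 0.80 ± 0.20 in vehicle and 0.62 ± 0.18 in dexamethasone cultures (adjusted p = 0.0026 and 0.0070). As a share of the summed TPM of the 5 genes, SFRP2 gave 45.8 ± 2.6% and 48.8 ± 8.6% in H9 dexamethasone and vehicle cultures and 81.1 ± 2.5% and 76.9 ± 8.1% in the H1 groups, and FRZB gave 30.7 ± 5.0% and 25.7 ± 3.3% in H9 and 5.69 ± 1.2% and 9.61 ± 7.6% in H1.

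WIF1, a binder of Wnt ligands, passed in dexamethasone cultures alone (1.58 ± 0.41 log2, adjusted p = 0.0078). In vehicle cultures it had 0.78 ± 0.40, and 1.09 ± 0.32 without H9 vehicle culture 3, which passed (adjusted p = 0.0075). For FRZB, WIF1, DKK2, FZD7 and WNT2B, which passed in 1 comparison only, the difference between the comparisons was not past the threshold (adjusted p of 0.55 to 0.70), so none is shown to depend on the treatment.

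DKK3, a Dickkopf relative whose role in Wnt signalling is less settled than that of DKK1, was at 480, 416 and 490 CPM in H9 dexamethasone and 429, 448 and 401 CPM in H9 vehicle cultures, against 208, 195 and 220 CPM in H1 dexamethasone and 248, 222 and 212 CPM in H1 vehicle cultures. The lines were far apart, with log2 fold changes of 0.91 ± 0.10 in vehicle and 1.15 ± 0.10 in dexamethasone cultures (adjusted p = 2.9e-05 and 4.5e-06). DKK1, the classic LRP5 and LRP6 antagonist, was at 7.40, 6.39 and 8.48 CPM in H9 dexamethasone and 5.72, 4.26 and 1.16 CPM in H9 vehicle cultures, against 1.12, 1.28 and 1.60 CPM in H1 dexamethasone and 1.40, 1.53 and 0.761 CPM in H1 vehicle cultures. Only H9 vehicle culture 3 reached down to the H1 values. The log2 fold change was 1.63 ± 0.44 in vehicle and 2.47 ± 0.42 in dexamethasone cultures (adjusted p = 0.0093 and 5.8e-04). DKK1 shares 9.61% of its exon bases with the antisense gene PRKG1-AS1. DKK2 was lower in H9 in vehicle cultures alone (-0.97 ± 0.26, adjusted p = 0.0099).

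Promoter windows were read for the members that the RefSeq table of GRCh38.p14 holds, 30 of 44 with 33 start sites, each from 250 bases before to 50 after the start. They were searched on both strands for CTTTGAA and CTTTGAT, sites of the TCF and LEF factors that carry the beta-catenin signal. They were also searched for AGAACA, the core of a glucocorticoid response element, and for the full element. The full element was taken as AGAACA, 3 bases of any kind and TGTTCT, with no mismatch allowed. CTTTGAA was in 1 of the 33 windows, that of DKK1, and in 4.43% of all 35116 windows in the table. CTTTGAT was in 0 of 33 and in 2.62% of all. AGAACA was in 3 of 33, those of WNT8B, WIF1 and WNT2B, and in 14.8% of all. The full element was in 0 of 33 and in 1 of 35116. An exact match this rare could hardly be met in 33 windows, so the 0 says nothing about elements with mismatches. Median GC content was 69.7% over the member windows and 58.7% over all. The bases before the start are shown for DKK1 (chr10:52314031-52314280, plus strand) and WNT8B (chr10:100462759-100463008, plus strand), whose windows hold these letters, and for FZD8 (chr10:35642297-35642546, minus strand) and WNT4 (chr1:22143098-22143347, minus strand), lower and higher in H9, whose windows hold neither. Capitals mark CTTTGAA in DKK1, which begins 95 bases before the start, and AGAACA in WNT8B, which begins 118 bases before it and is read on the other strand. A match is a run of letters and not a shown binding site.
DKK1: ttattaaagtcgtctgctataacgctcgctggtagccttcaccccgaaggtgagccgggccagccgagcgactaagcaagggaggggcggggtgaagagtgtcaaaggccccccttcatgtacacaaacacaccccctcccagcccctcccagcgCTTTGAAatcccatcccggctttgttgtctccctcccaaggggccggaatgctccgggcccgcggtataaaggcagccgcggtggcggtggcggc
WNT8B: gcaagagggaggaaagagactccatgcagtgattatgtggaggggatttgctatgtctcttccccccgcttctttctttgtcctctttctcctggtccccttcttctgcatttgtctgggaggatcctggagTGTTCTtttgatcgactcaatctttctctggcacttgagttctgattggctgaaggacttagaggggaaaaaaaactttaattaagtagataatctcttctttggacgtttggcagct
FZD8: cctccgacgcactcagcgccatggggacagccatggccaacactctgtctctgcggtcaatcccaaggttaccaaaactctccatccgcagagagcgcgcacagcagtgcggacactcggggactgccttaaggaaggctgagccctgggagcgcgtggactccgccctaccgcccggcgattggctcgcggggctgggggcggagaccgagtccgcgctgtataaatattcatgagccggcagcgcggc
WNT4: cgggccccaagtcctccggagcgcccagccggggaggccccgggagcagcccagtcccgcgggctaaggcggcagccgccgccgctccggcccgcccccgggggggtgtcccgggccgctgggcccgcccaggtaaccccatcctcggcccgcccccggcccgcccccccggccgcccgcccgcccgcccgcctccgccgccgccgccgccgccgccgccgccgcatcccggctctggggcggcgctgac

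Other genes of the pathway were taken as lists and read for both line comparisons together. Among 5 genes for ligand secretion, WLS, the carrier that takes Wnt ligands to the cell surface, and PORCN, the enzyme that attaches their lipid, were higher in H9 and none was lower. WLS had log2 fold changes of 0.68 ± 0.18 and 0.94 ± 0.18 in vehicle and dexamethasone cultures. Of 12 other receptors and co-receptors 4 were higher and 2 lower. LGR6, an R-spondin receptor, was higher by 4.46 and 4.02 log2, at means of 2.64 and 0.994 CPM in H9 dexamethasone and vehicle cultures and 0.157 and 0.0396 CPM in the H1 groups. Of 11 genes for receptor turnover and other antagonists 4 were higher and 3 lower. RNF43, a ligase that removes Frizzled from the membrane and an R-spondin target, was lower in H9 by -1.47 and -1.87 log2, and CER1, a secreted antagonist, by -1.98 and -1.77.

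Downstream, 1 of 15 relay genes was higher and 4 were lower in H9 in both comparisons, with DVL1, a scaffold next to the receptor, at 0.91 and 0.48 log2 in vehicle and dexamethasone cultures and GSK3B, a kinase of the destruction complex, at -0.76 and -0.69. Of 13 nuclear factors 0 were higher and 5 lower, with LEF1 at -1.18 and -1.21 log2. Of 14 tested feedback targets, genes that beta-catenin signalling is known to switch on, 3 were higher and 5 lower. Of these, APCDD1, LGR6, RNF43, AXIN2 and LEF1 were also counted in other pathway lists, so the list counts are not separate. APCDD1, a membrane antagonist, had 1.44 and 1.62 log2 and MYC 0.96 and 1.39, while TNFRSF19 had -1.52 and -1.09, AXIN2 -0.36 and -0.42 and CCND1 -0.59 and -0.86. The feedback targets thus moved in both directions. Of 10 planar cell polarity genes 4 were higher and 1 lower, with PRICKLE2 at 0.72 and 0.70 and CELSR3 at -0.44 and -0.96. Beside these counts stands the background of 18.3% of all genes higher and 14.7% lower in both comparisons. MYC was at 11.1 CPM in H9 vehicle culture 3, against 26.7 and 25.1 CPM in its sister cultures. DVL1 was at 145 CPM in it, against 93.8 and 109 CPM, and CELSR3 at 191 CPM, against 112 and 128 CPM. Line differences of the listed genes are not given without that library.

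Markers of cell types differed between the lines together with these genes. All 8 proliferation markers were lower in H9 in both comparisons, with summed levels of 86.8 to 108 and 69.8 to 96.2 CPM in H9 dexamethasone and vehicle cultures and 516 to 524 and 447 to 515 CPM in the H1 groups. Of 10 mesenchymal markers 1 was higher and 4 lower, with summed levels of 229 to 272 and 250 to 396 CPM in H9 and 1459 to 3079 and 1842 to 3285 CPM in H1. The lower ones were COL1A1, COL1A2, COL3A1 and POSTN, the higher one TWIST1, and the others did not pass in both comparisons. COL1A1 alone averaged 17.2 and 32.1 CPM in H9 dexamethasone and vehicle cultures and 1308 and 1407 CPM in the H1 groups. Of 10 markers of choroid plexus and cortical hem, tissues rich in Wnt signals, 4 were higher in H9 and 0 lower. The higher ones were TTR, LMX1A, MSX1 and FOLR1, and the others did not pass in both comparisons. LMX1A, a hem and roof plate factor, averaged 6.69 and 10.5 CPM in H9 dexamethasone and vehicle cultures and 0.994 and 1.01 CPM in the H1 groups. Of 8 neuronal markers 4 were higher in H9, of 8 astrocyte markers 4 were higher, of 7 midbrain and hindbrain markers 3 were higher, and of 7 tested progenitor markers 1 was lower. Of 4 tested neural crest markers 1 was lower, of 2 tested endothelial markers 1 was lower, and of 2 tested markers of pluripotent cells 1 was higher and 1 lower. Beside the marker counts, too, 18.3% of all genes were higher and 14.7% lower in both comparisons. Lists of 2 or 4 tested genes are too short to set against these shares. The part of these differences in the line differences of the Wnt genes was not tested.

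Dexamethasone moved no member past the threshold. In H9, in H1 and over both lines 0 of 33 passed, beside 0.0673%, 0.0505% and 0.101% of all genes. The H1 background depended on the fit. Over all genes, 9 passed in H1 in the main fit, 59 without H9 vehicle culture 3 and 50 with H1 fitted alone. In each of these fits 0 members passed in H1. At an unadjusted p under 0.05 there were 8 members in H9, 2 in H1 and 4 over both lines, beside 16.3%, 2.95% and 7.49% of all genes. DESeq2 called 1 member in H9 and 1 over both lines, WNT5A each time, beside 0.83% and 0.682% of all genes it tested, and limma-voom called none. The difference of the effects between H9 and H1 passed for 0 members and for 0 of all genes. At an unadjusted p under 0.05 it had 1 of 33 members, beside 7.46% of all genes. No gene of the other pathway lists passed in any of these contrasts.

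**Figure D4:**
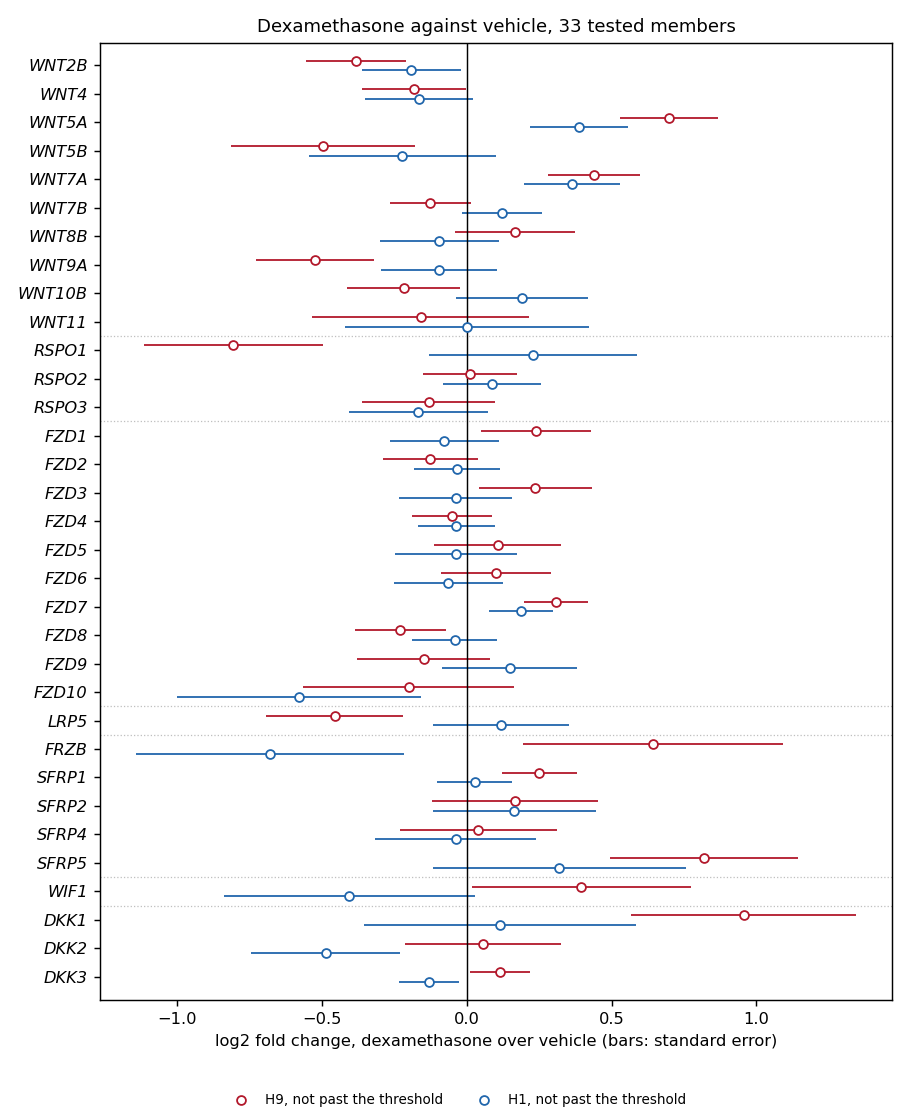
Points show the log2 fold change of dexamethasone over vehicle for each of the 33 tested members in H9 (red, upper) and H1 (blue, lower), with bars of 1 standard error and all points open because none passed the threshold. Changes lie between -0.80 for RSPO1 and 0.96 for DKK1 in H9, and between -0.68 for FRZB and 0.39 for WNT5A in H1.

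WNT5A, WNT7A and FZD7 had the smallest p over both lines. WNT5A was at 51.8, 54.8 and 55.6 CPM with dexamethasone, against 37.2, 38.2 and 24.2 CPM with vehicle in H9. In H1 it was at 35.0, 48.9 and 38.4 CPM with dexamethasone, against 29.3, 33.9 and 30.2 CPM with vehicle. In both lines every treated culture was above every vehicle culture. The log2 fold change was 0.70 ± 0.17 in H9 (adjusted p = 0.28), 0.39 ± 0.17 in H1 (adjusted p = 1.0) and 0.54 ± 0.12 over both lines (adjusted p = 0.20). DESeq2 gave 0.73 in H9 and 0.56 over both lines with adjusted p of 0.028 and 0.010. Without H9 vehicle culture 3, the lowest of the 12, the edgeR value over both lines was 0.45 ± 0.07 and passed (adjusted p = 0.0067), and that in H9 was 0.52 ± 0.11 and did not (adjusted p = 0.063).

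WNT7A had log2 fold changes of 0.44 ± 0.16 in H9 and 0.36 ± 0.17 in H1, and 0.40 ± 0.11 over both lines (adjusted p = 0.30, 1.0 and 0.48). The cultures given above did not overlap in H1, whereas in H9 the vehicle culture 3, at 35.8 CPM, was above the dexamethasone culture 2, at 32.5 CPM. Without that library the change was 0.62 ± 0.12 in H9 and 0.49 ± 0.08 over both lines, and both passed (adjusted p = 0.034 and 0.0084), beside 0.293% and 0.774% of all genes in that fit. FZD7 had 0.31 ± 0.11 in H9, 0.19 ± 0.11 in H1 and 0.25 ± 0.08 over both lines (adjusted p = 0.55 over both lines). Its treated cultures were above the vehicle cultures in both lines, and without H9 vehicle culture 3 the change over both lines was 0.21 ± 0.06 (adjusted p = 0.14). In H9, 5 members were higher in all dexamethasone libraries and 3 lower in all, 8 of 33 beside 21.4% of all genes (9.76% higher, 11.6% lower). In H1, 3 were higher and 1 lower, beside 14.1% (7.15% higher, 6.98% lower). FZD7 and WNT5A were the 2 that were higher in both lines without overlap, beside 0.763% of all genes.

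The widest changes in H9 were those of DKK1, SFRP5 and RSPO1, none past the threshold. DKK1 had 0.96 ± 0.39 in H9 and 0.12 ± 0.47 in H1, and 0.57 ± 0.21 in H9 without H9 vehicle culture 3. SFRP5 had 0.82 ± 0.32 in H9, at levels under 2 CPM. RSPO1 was at 4.89, 5.97 and 5.87 CPM in H9 dexamethasone cultures, against 7.14, 12.9 and 9.25 CPM in H9 vehicle cultures, at -0.80 ± 0.31 log2 (adjusted p = 0.30), and at 0.23 ± 0.36 in H1. It was the member with an unadjusted p under 0.05 for the difference of effects, -1.03 ± 0.47 (adjusted p = 0.55). RSPO2, by contrast, had changes of 0.01 ± 0.16 in H9 and 0.09 ± 0.17 in H1.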

How the data were processed

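Polyadenylated RNA of 12 cultures was sequenced, 3 per line and treatment, grouped by the labels. Each deposited file gives whole-number raw counts by gene ID for a single culture. The submitters' processing notes name STAR 2.5.3a, HTSeq, hg38 and GRCh38.p10. Which annotation release was counted, whether strand was used and how multiply mapped reads were treated is not given in the sources used, so overlapping genes on opposite strands cannot be told apart. The protocols state that libraries were pooled over more than 1 flow cell, with no batch given for a library.

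Counts were fitted in edgeR 4.0.16 (R 4.3.3) after filterByExpr, which kept 17819 genes, with TMM scaling, 1 mean per group over all 12 libraries, quasi-likelihood F-tests and Benjamini-Hochberg adjustment over all genes at 0.05. Standard errors are the log2 fold change over the square root of F. CPM are TMM-scaled. TPM used GENCODE 29 exon lengths. Alternatives were RLE factors, DESeq2 1.42.0, limma-voom (limma 3.58.1), other filters on low counts, fits of 1 line, each library left out in turn, and culture number as a block. The test was checked on simulated counts.

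Members with values in every library were those with a line difference of at least 2 log2 in both comparisons, those with the highest TPM of a family, and the 3 with the smallest p for dexamethasone over both lines. FZD2, RSPO1, DKK1, FRZB, WNT11 and other values outside this rule were chosen after they were seen. The members and lists were chosen with earlier results of these data known. The counts of 1 marker list are not reported here.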

Additional observations from a re-analysis of the deposited data

How the results depend on the processing

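The count of members that differed between the lines was 20 in vehicle and 19 in dexamethasone cultures, and over all alternatives it ranged from 20 to 23 and from 19 to 25, the highest in both without H9 vehicle culture 3. Of 39 line differences past the threshold, 38 kept their direction and their side of the threshold under every alternative. The exception, WNT2B, is given above, and none reversed. Under dexamethasone DESeq2 called 1 member in H9 and 1 over both lines. Leaving out 1 library at a time gave 0 to 1 members in H9, 0 in H1 and 0 to 2 over both lines, and H9 vehicle culture 3 was the library behind the 1 and the 2. All other alternatives gave 0. Over all genes, DESeq2 called 131 in H9 under dexamethasone, against 12 with edgeR.

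Culture numbers paired the samples weakly at most. Deviations of same-numbered cultures from their group means correlated at -0.159 to 0.179, with a median of 0.053, over 0.1 in 4 of 18 pairs. Other pairs correlated at -0.178 to 0.184, with a median of -0.018, over 0.1 in 2 of 36. The main fit did not use culture numbers. With culture number as a replicate block, 20 members passed in vehicle and 20 in dexamethasone cultures, and 0 under dexamethasone. Depth limits what can be said of the members that were not tested, other than LRP6, WNT1, WNT3 and WNT9B, whose counts are not read as levels. In H9 with all 3 vehicle cultures, a dexamethasone change of 0.96 ± 0.39 log2 in DKK1 was not past the threshold.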
